A study of Homo sapiens with 24 samples.

Results

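The regions described here are sites in human RD cells where the muscle transcription factor MYOD had a called peak in both control libraries and in neither TWIST2-knockdown (KD) library, while the acetylated region around them was present in all 4 H3K27ac libraries. They are called lost MYOD regions below, where lost refers to called peaks and not to a measured amount of binding. To find them, the 4 MYOD peak lists were merged where peaks overlapped by at least 1 bp, and the 4 H3K27ac lists were merged apart from them in the same way. The regions were thus selected on the called MYOD and H3K27ac peaks of these 8 lists, and 3078 of 88541 merged MYOD regions met the rule. They lay in 2970 of 27442 constant H3K27ac regions, meaning regions with a peak in all 4 H3K27ac lists, and such a surrounding region is called the host below.

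RD cells are an established line from a rhabdomyosarcoma without the PAX fusion, a tumour whose cells resemble skeletal muscle precursors. Chromatin immunoprecipitation sequencing (ChIP-seq) was done for MYOD, H3K27ac and SMARCA4 in cells with TWIST2 KD and in control cells, with 2 libraries in each group. A Ty1 antibody was used in 2 further libraries of RD cells labelled 3xTy1-TWIST2, which report where tagged TWIST2 bound and have neither a KD nor a control arm. MYOD, H3K27ac and Ty1 libraries carry the prefix RD-1 and SMARCA4 libraries the prefix RD-2, which the labels do not explain, so SMARCA4 was compared with MYOD across these prefixes. The labels give neither the means of knockdown nor its depth, nor whether replicates came from separate cultures. P-values therefore measure the spread between these libraries, and with 2 against 2 libraries the exact two-sided permutation test cannot give less than 0.333.

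MYOD is a basic helix-loop-helix activator that binds E-box sequences at muscle enhancers and promoters and drives myoblasts towards differentiation. TWIST2 belongs to the same protein class, can bind related E-boxes, and is known for holding mesenchymal progenitors in an undifferentiated state and for opposing MYOD activity. SMARCA4, also called BRG1, powers SWI/SNF complexes, which move nucleosomes and in muscle cells are recruited to MYOD targets. H3K27ac, acetylation of lysine 27 of histone H3, marks active promoters and enhancers. A lost MYOD region is thus a place where a factor's peak went missing inside chromatin that kept an active mark. All these assays were done on bulk cells, in which fewer cells with binding and less binding per cell cannot be told apart.

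The lists differed in ways that touch these regions. The MYOD lists of TWIST2 KD cells held 52510 and 48003 peaks and those of control cells 44974 and 43381, each of a single width, which was 213 and 225 bp in the KD lists and 159 and 179 bp in the control lists. Another peak of the same list lay within 500 bp of 1.40% and 0.783% of KD MYOD peaks, against 8.38% and 5.02% of control MYOD peaks, so neighbouring peaks were more often separate in the control lists. H3K27ac lists held 48022 and 46822 peaks in KD cells, against 36679 and 34932 in control cells. SMARCA4 lists held 12518 and 14676 peaks in KD, against 11835 and 25013 in control cells, and control replicate 2 stood apart from the other 3 libraries. The SMARCA4 headers give 36095336 and 41066933 tags in KD and 46690705 and 44810601 in control libraries. Depth is unknown for the other 10 lists, which hold positions only.

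Of the 44824 MYOD regions inside constant H3K27ac regions, the 3078 lost regions made up 6.87%, against 5.41% lost among all merged MYOD regions and 3.92% of the 43717 regions outside constant H3K27ac. As a share of regions in both control lists and inside constant H3K27ac, 14.9% were lost. In the other direction, 1816 regions inside constant H3K27ac were gained, with a peak in both KD lists and neither control list, which is 4.05% of all and 10.2% of those in both KD lists. A further 12947 regions were constant, with a peak in all 4 MYOD lists, and 4678 had a peak in both control lists and in exactly 1 KD list. These shares come from the lists that defined the classes and are given as a description. The count is the intersection of 4 MYOD lists, and leaving out 1 of them raised it to 5306 to 8109 regions.

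Lost regions had median positions near the middle of the control MYOD lists, below those of constant regions. The files are not in genomic order, and the position of a peak in its list served as a rank, with 100 for the first line; the files do not say what set this order. The median position of lost regions was 54.6 in control replicate 1 and 53.6 in control replicate 2, and single regions lay anywhere between 0.0023 and 99.5. Constant regions had medians of 76.8 and 76.6 in the same lists, and regions missing from 1 KD list had 57.4 and 57.0. Among lost regions, 5.56% and 4.94% fell in the first 10% of the control lists, against 26.9% and 26.4% of constant regions. By mean position in both control lists, 524 lost and 567 constant regions lay below 25, and 145 lost and 3334 constant regions above 90. Relative to constant regions, lost regions were thus more frequent towards the end of the control lists. The positions come from control lists that also defined the classes, and constant regions had to be called in both KD lists too. They are therefore given as a description. Lost regions outside constant H3K27ac lay much lower, at medians of 24.9 and 24.3.

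Many lost regions had a MYOD peak of a KD list close by, though most often one that no control list shared. The centre of the nearest MYOD peak of either KD list lay at a median of 768.5 bp from the centre of a lost region, with quartiles of 384 and 4004 bp. For 1122 of the 3078 regions (36.5%, 95% Wilson interval 34.8 to 38.2) this distance was under 500 bp, for 606 (19.7%) it was 500 to 1000 bp, and for 1350 (43.9%) it was 1000 bp or more. The 397 most isolated regions (12.9%) were at least 10000 bp from any KD peak. Lost regions outside constant H3K27ac had a KD peak within 500 bp in 12.2% of cases, and gained regions had a control peak within 500 bp in 28.1%. The nearest KD peak of the 1122 close regions lay in a region of 1 KD list alone for 526 (46.9%), in a gained region for 194 (17.3%), in a constant region for 130 (11.6%), and in another region shared with some control list for 272 (24.2%). At the edge of the rule, 321 lost regions were separated from the nearest KD peak by a gap under 50 bp and counted as lost only because no base overlapped. The wider spacing of peaks within the KD lists moves with these distances, and its part in them was not tested.

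**Figure D1:**
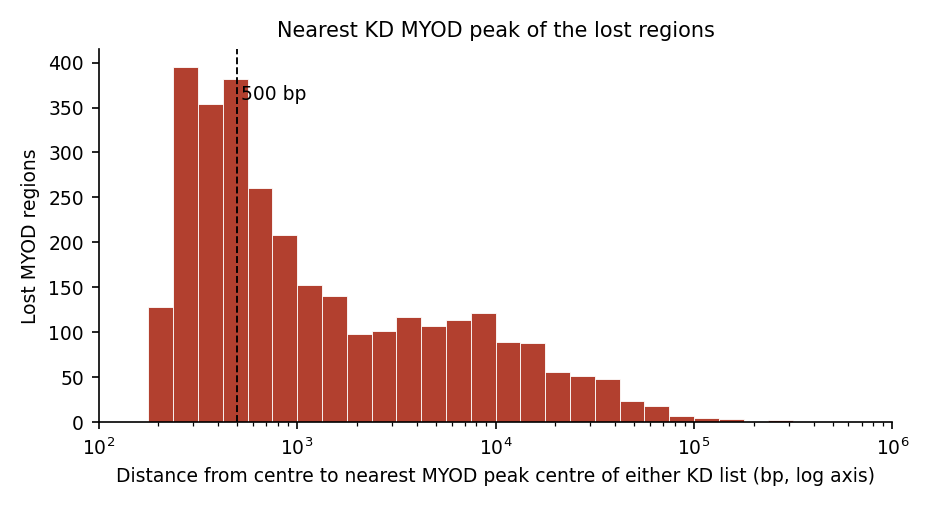
Number of lost MYOD regions (y axis) by distance in bp from the region centre to the nearest MYOD peak centre of either TWIST2 KD list (x axis, log scale), with a dashed line at 500 bp. The distribution starts at 197 bp, is highest below 1000 bp and has a long shoulder that passes 10000 bp for 397 of the 3078 regions.

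Seen by host, the loss of a single MYOD region was the usual case. Of the 2970 hosts, 2863 held 1 lost region, 106 held 2 and 1 held 3. In TWIST2 KD cells the host held a MYOD peak anywhere along its length in both KD lists for 1397 hosts (47.0%), in 1 KD list for 792 (26.7%) and in neither for 781 (26.3%). Across all 20122 constant H3K27ac regions with a MYOD peak in both control lists, both KD lists had a MYOD peak in 15677 (77.9%) and neither had one in 1058 (5.26%). Hosts of lost regions were chosen for a MYOD region missing from both KD lists. Their lower share with KD MYOD peaks therefore follows at least in part from the rule and is given as a description. A lost region was the only MYOD region of its host in 518 hosts (17.4%). Hosts also held a constant MYOD region in 625 cases (21.0%) and a gained one in 332 (11.2%). Of all 27442 constant H3K27ac regions, 12099 held a constant MYOD region and 1787 a gained one. These counts use the MYOD lists of the rule and are a description. Hosts had a median width of 3206.5 bp, against 2667 bp for the 24472 constant H3K27ac regions without a lost region, and 143 (4.81%) against 641 (2.62%) spanned 10000 bp or more. A wider region has more room for any MYOD peak, which was not adjusted for here.

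SMARCA4 peaks, which the rule did not use, were found at fewer lost regions in TWIST2 KD than in control cells. A SMARCA4 peak overlapped 6.99% and 7.70% of lost regions in the KD libraries, against 13.0% and 27.5% in the control libraries. The groups did not overlap, and the means were 7.34% ± 0.51 in KD and 20.2% ± 10.2 in control cells (SD, n = 2 each), a ratio of 0.363 (exact permutation p = 0.333, the smallest possible). Over all MYOD regions inside constant H3K27ac the groups did not overlap either, with 12.4% and 11.9% in KD, against 15.2% and 29.7% in control libraries, a ratio of 0.540. The immunoprecipitation efficiency in the file headers moved with these shares, at 0.65% and 0.70% in KD and 0.88% and 1.83% in control libraries, and its part in the result was not tested. The size of the gap rested on control replicate 2, the library with the longest SMARCA4 list. The difference in means was -12.9 percentage points with all libraries, -5.65 without control replicate 2 and -8.09 with the same number of SMARCA4 peaks taken from every list. SMARCA4 peaks were wider in control than in KD lists, and the part of peak width in the overlap was not tested. With peaks counted within 500 bp of a region, the difference was -17.3 points.

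The same direction was present at constant MYOD regions, where the shares were 20.3% and 19.9% in KD and 25.7% and 47.1% in control cells, a ratio of 0.552. Regions missing from 1 KD list were in between, at 12.4% and 11.1% in KD and 16.6% and 35.6% in control cells. Gained regions had 9.97% and 10.1% in KD, against 5.84% and 15.1% in control cells, and here the groups overlapped (exact permutation p = 1). To compare classes within a library, the share at lost regions was divided by the share at constant regions of the same library. This quotient was 0.345 and 0.387 in KD libraries and 0.506 and 0.584 in control libraries, again without overlap (ratio of means 0.672, exact permutation p = 0.333). In percentage points the contrast between lost and constant regions overlapped, with differences of -13.3 and -12.2 in KD libraries and -12.7 and -19.6 in control libraries (exact permutation p = 0.667). Whether SMARCA4 differed more at lost than at constant regions thus depended on the scale. Lost regions were also narrower, at a median of 213 bp against 286 bp for constant regions, which affects an overlap of 1 bp. With SMARCA4 peaks counted within 500 bp, the ratio of means was 0.831.

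**Figure D2:**
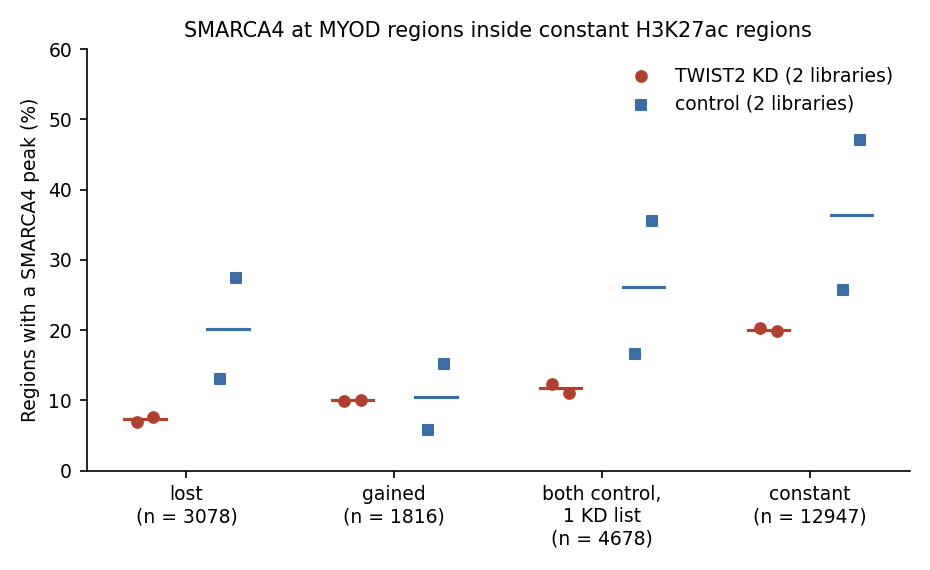
Percentage of MYOD regions with an overlapping SMARCA4 peak (y axis) in each library, for lost, gained, partly missing and constant MYOD regions inside constant H3K27ac regions (x axis). Points are single libraries, with TWIST2 KD left of control, and lines are the means of 2 libraries; KD points lie below both control points in every class but the gained one.

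Most lost regions had no SMARCA4 peak in any library, 1833 of 3078 (59.6%), compared with 68.5% of gained and 33.4% of constant regions. These shares were not adjusted for the different widths of the classes. A SMARCA4 peak in both control lists and neither KD list was found at 142 lost regions (4.61%), close to the 4.87% of all MYOD regions inside constant H3K27ac, and at 1104 constant regions (8.53%). The opposite pattern, both KD lists and neither control list, was found at 13 lost regions (0.422%), against 0.877% of all MYOD regions inside constant H3K27ac. Over all 48009 merged SMARCA4 regions, at MYOD sites or not, 6.68% were in both control lists alone and 1.91% in both KD lists alone. A SMARCA4 peak missing from both KD lists was thus about as frequent at lost MYOD regions as at all MYOD regions inside constant H3K27ac. Where SMARCA4 peaks were present at lost regions, they ranked above the middle of their lists. By the authors' normalized tag count they had a median percentile within their list of 60.4 and 67.8 in KD and 59.8 and 65.4 in control libraries, against 67.3 and 72.6 in KD and 67.8 and 70.2 in control libraries at constant regions. The lower share held whether MYOD was close by or not. In hosts without any KD MYOD peak, lost regions had SMARCA4 shares of 5.64% and 7.35% in KD and 11.03% and 26.7% in control cells, and lost regions with a KD MYOD peak within 500 bp had 8.02% and 7.84% in KD and 13.3% and 28.3% in control cells.

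Tagged TWIST2 overlapped a smaller share of lost than of constant MYOD regions. How the share compared with that of lost regions elsewhere depended on the measure. A TWIST2 region, with a peak in both Ty1 lists, overlapped 629 of 3078 lost regions (20.4%, 95% Wilson interval 19.05 to 21.9). Among gained regions 475 of 1816 (26.2%, 24.2 to 28.2) overlapped TWIST2, and among constant regions 6306 of 12947 (48.7%, 47.8 to 49.6). Over all MYOD regions inside constant H3K27ac the share was 30.2%, and at lost regions outside constant H3K27ac it was 21.9% (20.00 to 23.9), with an interval that overlaps that of lost regions inside. In single libraries the shares were 28.3% and 28.4% at lost regions and 58.3% and 58.4% at constant regions. Lost regions outside constant H3K27ac had 33.9% and 30.8% in single libraries, above those inside. Constant regions are wider after merging, with a median of 286 bp against 213 bp for lost and 268 bp for gained regions. With the distance between centres limited to 100 bp, which does not depend on width, TWIST2 was found at 14.5% of lost, 17.8% of gained and 38.0% of constant regions. By this measure lost regions outside constant H3K27ac had 17.9% (16.2 to 19.8), and this interval lay apart from that of lost regions inside (13.3 to 15.8). These intervals cover counting error over regions only. Within each Ty1 library, lost minus constant was -30.0 points in both (exact sign-flip p = 0.5, the smallest that 2 libraries allow).

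The gap was present in every part of the control lists. Ordered by mean position in the control lists, the TWIST2 share at lost regions was 19.8% below position 25, 19.6% from 25 to 50, 20.7% from 50 to 75, 21.2% from 75 to 90 and 23.4% above 90. At constant regions the same bands had 36.9%, 40.6%, 45.0%, 50.5% and 58.1%. Regions missing from 1 KD list lay between, with 26.8% in the lowest and 34.0% in the highest band. The share thus climbed with list position at constant regions and stayed within 19.6% to 23.4% at lost regions, where the uppermost band has 145 regions and an interval of 17.3 to 31.0. SMARCA4 shares were in a similar range with and without TWIST2. Lost regions with TWIST2 had SMARCA4 shares of 5.56% and 8.27% in KD and 11.6% and 30.5% in control cells, and those without TWIST2 had 7.35% and 7.55% in KD and 13.4% and 26.7% in control cells.

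**Figure D3:**
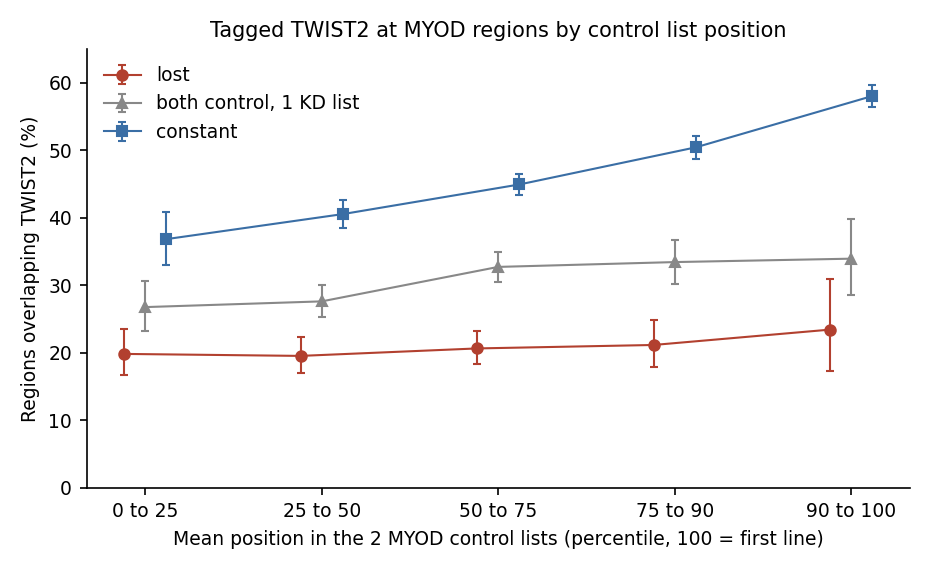
Percentage of MYOD regions that overlap a TWIST2 region (y axis) by mean position of the region in both MYOD control lists (x axis, percentile bands), for lost regions, regions missing from 1 KD list and constant regions. Bars are 95% Wilson intervals for counting error; lost regions stay between 19.6% and 23.4%, while constant regions run from 36.9% in the lowest to 58.1% in the highest band.

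H3K27ac peaks covered a slightly smaller share of the lost regions themselves in TWIST2 KD than in control cells. The rule required each host to have a peak in every H3K27ac list, but not that this peak cover the MYOD site. The same lists thus also selected the hosts, so the shares and p-values below describe selected regions and are not independent of the rule. An H3K27ac peak lay over the centre of 95.4% of lost regions in both KD libraries, against 98.0% and 98.1% in control libraries (difference -2.66 percentage points, exact permutation p = 0.333). Leaving out MYOD control replicate 1, MYOD control replicate 2 or MYOD KD replicate 1 from the choice of regions made this difference smaller by over 1.5 times, at -1.47, -1.62 and -1.48 points. At constant MYOD regions the order was the reverse, with 98.6% and 98.2% in KD and 97.0% and 96.4% in control libraries. Gained regions had 97.4% and 96.8% in KD and 85.9% and 84.0% in control libraries. Regions missing from 1 KD list had the same order as lost regions, with 97.5% and 97.1% in KD and 98.0% and 97.7% in control libraries. Lost regions 1000 bp or more from a KD MYOD peak had 92.6% in both KD libraries and 96.9% and 97.2% in control libraries. With a KD peak within 500 bp, the shares were 98.3% and 98.1% in KD and 99.2% and 99.0% in control libraries. Over all MYOD regions inside constant H3K27ac the shares were 97.2% and 96.8% in KD and 95.4% and 94.6% in control libraries. KD and control values did not overlap in any of these sets, so each gives the smallest possible p.

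Across the host as a whole, acetylated length was similar in the H3K27ac lists that also selected the hosts, so these lengths are a description of regions required to be present in all 4 lists. The H3K27ac peaks of a host covered a mean of 3562 and 3523 bp in KD, against 3503 and 3437 bp in control libraries, a ratio of 1.02. Constant H3K27ac regions without a lost MYOD region had 2938 and 2903 bp in KD, against 2752 and 2678 bp in control libraries, a ratio of 1.08, and hosts of gained regions had a ratio of 1.18. The KD lists of H3K27ac were longer throughout. On the log2 scale, hosts of lost regions exceeded constant regions without one by 0.28 in both KD libraries and by 0.35 and 0.36 in control libraries.

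**Figure D4:**
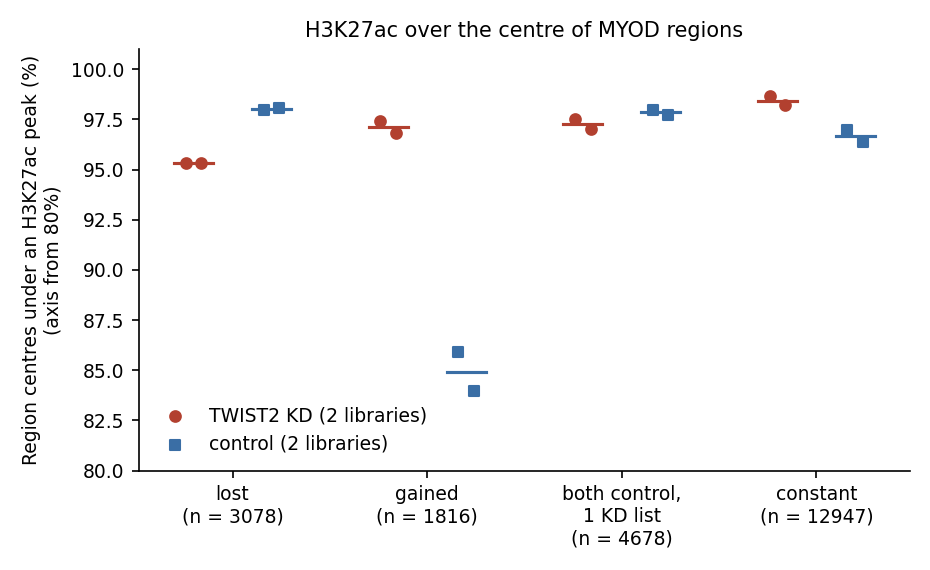
Percentage of MYOD region centres under an H3K27ac peak (y axis, starting at 80%) in each library, for 4 classes of MYOD regions inside constant H3K27ac regions (x axis). Points are single libraries, with TWIST2 KD left of control, and lines are means. KD lies below control at lost regions, 95.4% against 98.0% and 98.1%. It also lies below at regions missing from 1 KD list, 97.5% and 97.1% against 98.0% and 97.7%. At gained and constant regions KD lies above control.

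Single regions show the range of these settings, with positions in build hg19. The first by mean position in the control lists was chr10:104420615-104420809, at positions 98.5 and 99.5. Its nearest KD MYOD peaks were 472 and 447 bp away, and it overlapped neither a TWIST2 region nor a SMARCA4 peak. The next, chr1:118876343-118876535, overlapped TWIST2 and had KD MYOD peaks at 339 and 353 bp. At chr16:85482334-85482517, also under TWIST2, a gained MYOD region, chr16:85482576-85482824, had its centre 274 bp away, inside the same host. At chr10:80883336-80883514 a gained region, chr10:80883558-80883792, lay 250 bp away and reached a mean position of 99.5 in the KD lists. In these 2 places a lost and a gained MYOD region, both highly placed, shared an acetylated region, with their edges close together. The chr16 host held 1 MYOD peak in each KD list and 1 in each control list. Whether such pairs are separate sites or 1 site called at shifted positions was not tested. By contrast, chr10:116442019-116442204 had its nearest KD MYOD peaks at 9154 and 9263 bp, and its host, chr10:116440561-116448157, had no MYOD peak in either KD list. That host carried 7543 and 7279 bp of H3K27ac in KD and 5195 and 4864 bp in control libraries. Of the 10 lost regions placed highest in the control lists, 5 had a KD MYOD peak within 500 bp, 9 lay in hosts with MYOD in both KD lists and 4 overlapped TWIST2. Among all lost regions, 36.5% had such a close peak and 20.4% overlapped TWIST2, and 47.0% of all their hosts had MYOD in both KD lists.

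Among the 142 lost regions with SMARCA4 in both control lists and neither KD list, the highest in the MYOD lists was chr1:41837600-41837794, with KD MYOD peaks at 412 and 375 bp. Farther from any KD MYOD peak was chr10:54074074-54074369, 64407 and 64430 bp from the nearest KD peaks and in a host with no KD MYOD peak. Of the 142, 20 (14.1%) overlapped TWIST2 and 33 (23.2%) lay in hosts without a KD MYOD peak, against 20.4% and 26.5% of all lost regions.

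The only host with 3 lost regions was chr3:20687068-20694653, which had 0 MYOD peaks in both KD lists and 3 in both control lists. Its acetylated length was 6962 and 6430 bp in KD, against 7361 and 7217 bp in control libraries. Of the 106 hosts with 2 lost regions, the widest were looked at. The host chr17:46638912-46661101 held 2 lost regions at positions of about 91 and 93 in the control lists, and likewise had 0 MYOD peaks in both KD lists and 2 in both control lists. Its H3K27ac peaks covered 14341 and 15231 bp in KD, against 22190 and 22065 bp in control libraries. On the X chromosome, the host chrX:15181004-15206624 had 2 lost regions, 3 and 2 MYOD peaks in KD lists, and 4 in each control list. It carried 14308 and 13977 bp of H3K27ac in KD, against 25422 and 24358 bp in control libraries. A host can therefore count as constant and still have much less acetylated length in KD cells. The widest host, chr15:33375474-33426189, had 7 and 4 MYOD peaks in KD, against 9 and 6 in control lists, and 44454 and 42593 bp of H3K27ac in KD, against 50446 and 50155 bp in control libraries.

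Lost regions were spread over the genome, with chromosome X standing apart. On autosomes 2964 of 20266 MYOD regions in both control lists and inside constant H3K27ac were lost (14.6%, 95% Wilson interval 14.1 to 15.1), and single autosomes had between 11.9% on chromosome 20 and 17.6% on chromosome 11. On chromosome X 114 of 437 were lost (26.1%, 22.2 to 30.4). Gained regions made up 14.5% of those in both KD lists on chromosome X and 10.1% on autosomes. In windows of 5000000 bp with at least 30 such regions, the share lost had a median of 14.6% and a highest value of 42.9%, which was 15 of 35 regions in chrX:45000001-50000000. Whole lists of MYOD and SMARCA4 also had smaller chromosome X shares in KD than in control cells. The MYOD lists are those that defined the lost regions, so their shares are a description and not separate support. Chromosome X held 1.34% and 1.61% of the peaks in KD MYOD lists, against 1.81% and 1.89% in control MYOD lists. It held 0.463% and 0.750% of the peaks in KD SMARCA4 lists, against 1.66% and 1.80% in control SMARCA4 lists. For H3K27ac the shares were 2.71% and 2.80% in KD and 2.68% and 2.81% in control lists, which overlapped. At lost regions on chromosome X, SMARCA4 peaks were found at 2.63% and 4.39% in KD and 12.3% and 26.3% in control libraries. Without chromosome X, the SMARCA4 difference over all lost regions was -12.8 percentage points, against -12.9 with it.

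**Figure D5:**
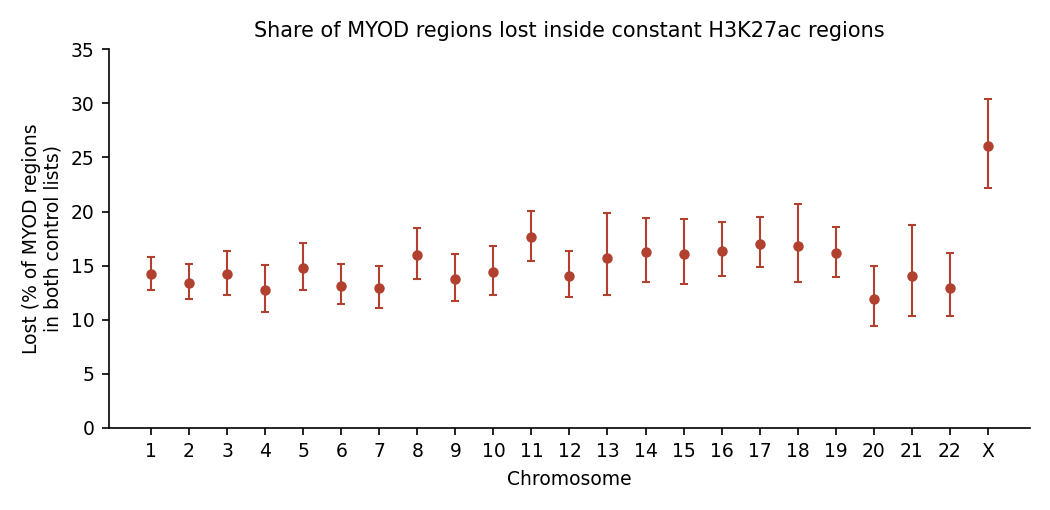
Percentage of MYOD regions found in both control lists and inside constant H3K27ac regions that were lost in TWIST2 KD (y axis), by chromosome (x axis). Points are shares and bars 95% Wilson intervals for counting error; autosomes lie between 11.9% and 17.6%, and chromosome X is at 26.1%.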

How the data were processed

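Of 24 samples, 14 had a peak list and were used, and the 10 input libraries were not analysed here. Groups came from the sample labels. Per the submitters' processing notes, the tools were HOMER 4.4, Bowtie2 2.3.4.3, bedtools 2.29.2 and SAMtools 0.1.19, and the builds GRCh37 and hg19. The deposited MYOD, H3K27ac and Ty1 files give chromosome, start and end only. Per the file headers, each SMARCA4 list was called with HOMER in factor style against an input, at a false discovery rate of 0.001 and at least 4 times the tags of the input and of the surrounding 10000 bp. The deposited SMARCA4 signal is the authors' tag count per peak, normalized by HOMER to a fixed number of tags, and ranked peaks within a list. The authors' deposited peak score and fold ratio over input were used to describe files only. How the other lists were filtered is not given in the sources used here.

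Peaks of an antibody were merged at an overlap of 1 bp, and classes followed the pattern over the 4 lists. The same 3078 regions resulted from bedtools 2.31.1 and from an own calculation in Python 3.11.15 with numpy 2.4.6 and pandas 2.3.3, which was also tested on simulated data. Libraries were compared by exact two-sided permutation tests with a threshold of 0.05, and shares carry 95% Wilson intervals (scipy 1.17.1) that cover counting error only. Plots used matplotlib 3.10.9. Alternatives were merging within 500 bp, MYOD peaks of a single width, equal list lengths, the upper part of the control lists, other overlap rules, a block for the replicate number, and each library left out in turn. Named regions were the 10 highest in the MYOD control lists by list order, the 5 hosts with most lost regions, with ties settled by width, and those with SMARCA4 in both control lists and neither KD list, of which examples are given. The regions, classes and lists were chosen with earlier results of these data known. No annotation or sequence of hg19 was used, so genes, promoters and E-box sequences were not analysed here.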

Additional observations from a re-analysis of the deposited data

Results flagged for a closer look

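The KD minus control difference in H3K27ac over region centres differed between lost and constant MYOD regions by -4.39 percentage points. Lost minus constant was -3.29 and -2.85 points in KD libraries and 0.99 and 1.65 points in control libraries, so every KD library was on one side of 0 and every control library on the other. The exact permutation p of this difference was 0.333, the smallest that 2 against 2 libraries allow. The H3K27ac lists compared here also selected the hosts, so this p-value is not independent of the rule. The part that the longer KD lists of H3K27ac have in this difference was not tested. Regions missing from 1 KD list had the same signs against constant regions. Their contrast was -1.13 and -1.15 points in KD libraries and 0.995 and 1.31 points in control libraries.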

How the results depend on the processing

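The number of lost regions was 1811 with peaks merged within 500 bp, 1447 for the upper part of the control lists, 1956 without those that had a KD MYOD peak within 500 bp, and 3095 to 8109 when 1 library was left out. The largest value came without MYOD control replicate 2; without MYOD control replicate 1 it was 7096, without KD replicate 1 5629 and without KD replicate 2 5306. By construction a rule on fewer MYOD lists admits more regions. The TWIST2 share of lost regions was 24.6% with peaks merged within 500 bp, 37.6% for TWIST2 in either Ty1 list, 14.5% within 100 bp of the centre, and 17.1% to 28.4% with 1 library left out. The share with a constant MYOD region in the host was 20.7%, and 17.97% with equal MYOD list lengths, 24.3% in the upper part of the control lists, 22.5% without a close KD peak, and 20.3% to 26.8% with 1 library left out. Over all MYOD regions inside constant H3K27ac this share was 43.1%, a set that includes the constant regions themselves. For these shares the cause was not tested.

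The SMARCA4 difference at lost regions kept its direction under all 22 alternatives, between -20.1 and -5.65 points. Its quotient against constant regions, KD over control, was 0.627 to 0.831 under 21 alternatives. The H3K27ac difference over centres was -4.09 to -1.47 points and the ratio of acetylated length 1.00 to 1.04, each under 16 alternatives. None of these designs can pass 0.05. The alternatives without close KD peaks, without chromosome X and at 100 bp, and the quotient, were chosen after seeing the data.

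Replicate numbers are shared by the groups, but nothing in the labels pairs them. The correlation of replicate differences between KD and control was -0.031 for SMARCA4, 0.0053 for H3K27ac and -0.00012 for MYOD. With a replicate block the SMARCA4 difference was -12.9 points (exact sign-flip p = 0.5, the smallest possible with 2 pairs). Promoter and E-box shares were not run.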
